A study of Mus musculus with 6 samples.

Results

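ATF4 is a transcription factor of the integrated stress response. When a kinase phosphorylates the initiation factor eIF2, general protein synthesis slows while the Atf4 transcript is translated more, and the protein then switches on genes that import amino acids, make them and load them onto tRNA, together with stress factors that can restrain growth or lead to cell death. Beta cells, which make very large amounts of insulin, are known to rely on this response, and the ATF4 protein is controlled largely at translation, which transcript counts do not measure. The 40 genes described here are Atf4, its partners and established targets, and the amino acid supply genes around them, chosen by name from the 48397 genes in the tables. They comprise 11 stress factors, 11 enzymes of amino acid and one-carbon synthesis, 11 amino acid transporters, 6 cytosolic aminoacyl-tRNA synthetases and the translation inhibitor gene Eif4ebp1, and all 40 passed the filter on low counts.

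The RNA was polyadenylated RNA of isolated pancreatic islets, a mixed tissue, from wild-type C57B6 mice. After a night of recovery in RPMI-1640 with 10% serum, islets spent 24 h in recombinant mouse prolactin at 500 ng/mL or in DMSO as the control, and each condition gave 3 libraries. Nothing in the labels ties a replicate to its own animals or culture, and the p-values therefore measure no more than how these samples spread, which may be technical variation. Ages are not given in the sources used here. Levels are in CPM (counts scaled to library size with edgeR's TMM factors). A log2 change is prolactin relative to control, and a range beside it is its 95% confidence interval.

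Libraries held between 230833584 and 530296257 counts. Insulin transcripts dominated, with Ins2 between 70626 and 90043 CPM, and the prolactin target Cish lay between 7.54 and 8.68 CPM in control against 36.5 to 42.0 CPM in prolactin. Prolactin replicates 2 and 3 were closer to each other (spread 2.39 times sampling noise) than prolactin replicate 1 was to either (9.50 and 10.5 times), and the control pairs spread by 18.3 to 53.7 times. The summed CPM of 16 acinar markers ranged from 602 to 3284 in control, highest in replicate 3, and from 991 to 2141 in prolactin, highest in replicate 1. Of 11 stromal markers 2 rose (edgeR adjusted p under 0.05), where 0.652% of all genes tested did. All 11 had positive changes, and 7 had prolactin libraries wholly above the controls, where 11.3% of all genes did. The sum of the 11 stromal markers was 361 to 547 CPM in control and 744 to 918 CPM in prolactin. The endothelial marker Vwf also rose, and the delta-cell marker Sst fell. With control given before prolactin, the sum of 9 alpha-cell markers was 23836 to 37935 and 35535 to 36845, that of 10 beta-cell markers 117066 to 143551 and 119093 to 124568, and that of 5 delta-cell and PP-cell markers 5800 to 5988 and 3654 to 4593. The sum of 9 duct markers was 1310 to 1908 and 1540 to 2186, that of 9 endothelial markers 265 to 298 and 309.7 to 318, and that of 10 macrophage and leukocyte markers 118 to 121 and 117 to 127. No marker in these lists was at 0 in any library. In such bulk samples, fewer cells of a type and less RNA per cell cannot be told apart, and the part of these markers in the values below was not tested.

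ATF4 and C/EBP proteins are known to bind a composite element whose core can be written TGATGNAA. Those letters, searched on both strands of the RefSeq promoters (250 bases before to 50 after the start, GRCm38.p6, the assembly also called mm10), stood in 11 of the 32 genes of the set that have an entry there, which is 34.4%, against 4.51% of all 27025 gene symbols in the table and 3.97% of all 32851 promoters of the same length. Since many of the genes were picked as ATF4 targets, this share is a description of the set. The element stood in 4 stress factor genes (Trib3, Chac1, Nupr1 and Fgf21), in the enzyme genes Asns and Pycr1, in the transporter genes Slc7a11 and Slc1a4, and in the synthetase genes Aars, Gars and Yars. Windows of 30 bases around matches that lie wholly before the start site are shown for some of these genes, because the match is what these otherwise unlike genes share. Capitals mark the match, written 5′ to 3′ on the gene's own strand, so that a match on the other strand reads TTNCATCA, and the position is that of its first base relative to the start site.
Chac1 (chr2:119351038-119351067, plus strand, position -193): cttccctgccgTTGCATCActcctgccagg
Fgf21 (chr7:45615611-45615640, minus strand, position -139): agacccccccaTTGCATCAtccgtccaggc
Nupr1 (chr7:126625562-126625591, minus strand, position -110): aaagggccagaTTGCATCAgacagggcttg
Asns (chr6:7693214-7693243, minus strand, position -23): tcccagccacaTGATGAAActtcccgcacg
Pycr1 (chr11:120643833-120643862, minus strand, position -103): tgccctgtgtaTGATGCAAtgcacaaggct
Slc7a11 (chr3:50443661-50443690, minus strand, position -66): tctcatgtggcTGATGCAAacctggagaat
Slc7a11 (chr3:50443642-50443671, minus strand, position -47): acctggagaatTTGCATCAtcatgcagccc
Gars (chr6:55037960-55037989, plus strand, position -30): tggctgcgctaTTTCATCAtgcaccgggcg
Slc7a11, the cystine transporter gene, carries the match once in each orientation. The windows of Asns and Nupr1 touch an exon of the same gene in the gene models used for counting. The 11 genes with the letters had a median log2 change of 0.08 and the 21 without them 0.09, so these medians lay close together. A match is a description of sequence and not a measured binding site.

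The question put to the expression data was whether a day of prolactin shifted this programme in islets. Atf4 stood at nearly the same level in both conditions (log2 change 0.02, -0.11 to 0.15), and none of the 40 genes passed the test. The small differences were mostly positive in the supply genes and also in the stress factors (8 of 11). Among all genes tested 50.1% were positive. The death-linked factor Ddit3 went the other way and lay lower in every prolactin library. In edgeR's quasi-likelihood test, 0 of the 40 had an adjusted p under 0.05, where 0.757% of all 23924 genes tested were called (0.652% higher and 0.104% lower). Before adjustment 11 had a p under 0.05 and lay higher and 2 lower, where 7.78% and 6.68% of all genes did. limma-voom called 0 of the 40 (0.74% of all genes). The authors' deposited table, made with DESeq2, has 4 of them higher and 1 lower at an adjusted p under 0.05, where it calls 5.71% of the 18913 genes that have one (4.1% higher and 1.6% lower). Leaving out control replicate 3 gave 4 higher and 1 lower in the edgeR test, with 342 higher and 234 lower among all genes in that fit.

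Of the 40 genes 33 had a positive change and 7 a negative one, and the median log2 change was 0.09, against 0.00 for all genes tested and -0.01 for the 7842 genes at a mean of 20 CPM or more, of which 44.8% were positive. All 3 prolactin libraries lay above all 3 control libraries for 13 genes and below them for 1, so 14 of the 40 did not overlap, where 21.6% of all genes did not (11.3% above and 10.4% below). The intervals were narrow, and for 37 of the 40 the whole 95% confidence interval lay within a change of 1.5-fold in either direction. The exceptions were Fgf21, Slc7a3 and Slc7a11.

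**Figure D1:**
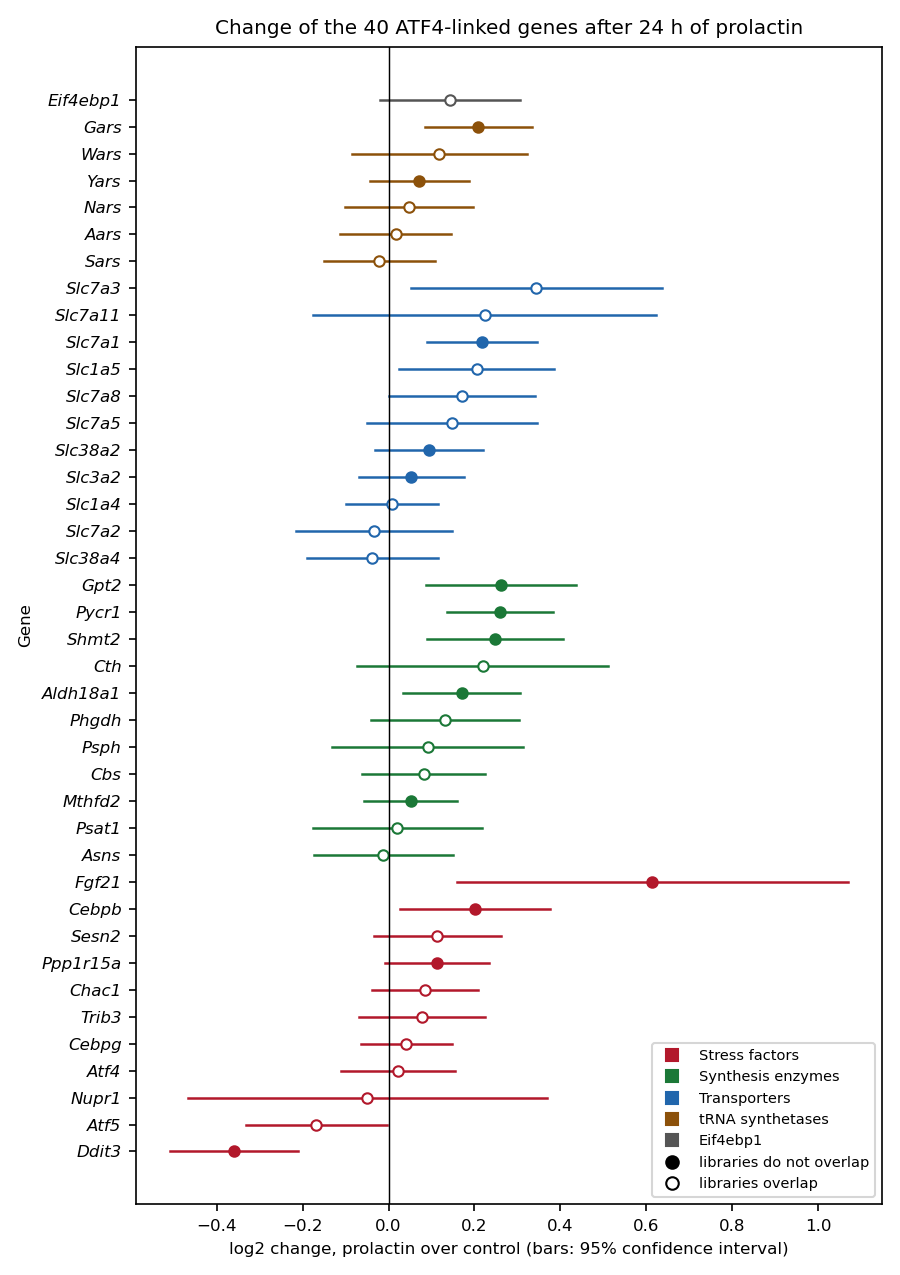
Log2 change of prolactin over control (x axis) with its 95% confidence interval for each of the 40 genes (y axis), coloured by role, with filled points where the control and prolactin libraries do not overlap. Ddit3 at -0.36 is the one filled point left of 0, and 13 filled points lie to the right.

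Atf4 (chromosome 15, 80255184 to 80257540, mm10) was the most abundant of the 40 per length of exon, at 204 CPM per kb. It stood at 359.7, 343 and 344 CPM in control replicates 1 to 3 and at 370.1, 349 and 343 CPM in prolactin replicates 1 to 3. The groups overlapped throughout, and the edgeR adjusted p was 0.905. Atf5, a related factor whose translation is controlled in the same manner, stood at 271, 318 and 318 CPM in control and at 267, 266 and 274 CPM in prolactin. Control replicate 1 lay among the prolactin libraries, and the log2 change of Atf5 was -0.17 (from -0.33 to just under 0, adjusted p = 0.335).

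Ddit3 encodes CHOP, the ATF4 partner that links prolonged stress to cell death, and came nearest to the threshold. It stood at 49.5, 43.8 and 46.6 CPM in control and at 38.8, 35.5 and 34.7 CPM in prolactin, so that every prolactin library was lower than every control library. The log2 change was -0.36 (SE 0.066, 95% confidence interval -0.51 to -0.21), with an edgeR adjusted p of 0.0501. Ddit3 passed in 4 of 17 alternatives, including DESeq2 and the replicate block (adjusted p = 0.0110). Without control replicate 3 the adjusted p was 0.0490, and with any other single library left out it lay between 0.0666 and 0.264. In the authors' deposited table its log2 change was -0.36 with an adjusted p of 0.000367. Its exons (chromosome 10, 127290774 to 127296288) share 68 bases, or 3.97% of their length, with those of Mars on the opposite strand, and the counting did not use strand. Mars, the methionyl-tRNA synthetase gene, differed in the other direction, from 112, 115 and 120.0 CPM in control to 137, 129.9 and 135 CPM in prolactin (log2 change 0.21, adjusted p = 0.125).

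Trib3, a pseudokinase that restrains AKT and is induced by ATF4 and CHOP, stood at 39.1, 37.1 and 39.0 CPM in control and at 44.1, 39.6 and 37.9 CPM in prolactin (log2 change 0.08, -0.07 to 0.22). Chac1, which breaks down glutathione, stood at 65.7, 64.6 and 71.2 CPM in control and at 72.7, 70.3 and 70.5 CPM in prolactin (log2 change 0.08, -0.04 to 0.21). Both overlapped between the groups, and their intervals exclude a change of the size seen in Ddit3 in either direction. Cebpb, a leucine-zipper partner of ATF4, stood at 22.1, 26.1 and 26.3 CPM in control and at 29.8, 28.6 and 27.1 CPM in prolactin. Its prolactin libraries were all higher, the log2 change was 0.20 and the adjusted p 0.284, and 20.7% of its exon length overlaps Tmem189 on the opposite strand. Fgf21, a stress-induced hormone gene, was the least abundant of the 40 per length, at 0.547, 0.350 and 0.516 CPM in control and at 0.729, 0.804 and 0.642 CPM in prolactin. Those groups did not overlap, but the interval of its log2 change of 0.61 was wide (0.16 to 1.07, adjusted p = 0.213).

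Of the remaining stress factors, Ppp1r15a, the subunit that directs a phosphatase back to eIF2, had a log2 change of 0.11 with its prolactin libraries above its control libraries. The leucine sensor gene Sesn2 and the ATF4 partner gene Cebpg had changes of 0.11 and 0.04 and overlapped. Nupr1, a stress-induced chromatin protein gene, varied within conditions far more than between them: it stood at 104, 68.0 and 92.5 CPM in control and at 109 CPM in prolactin replicate 1 against 73.8 and 71.9 CPM in the other two.

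**Figure D2:**
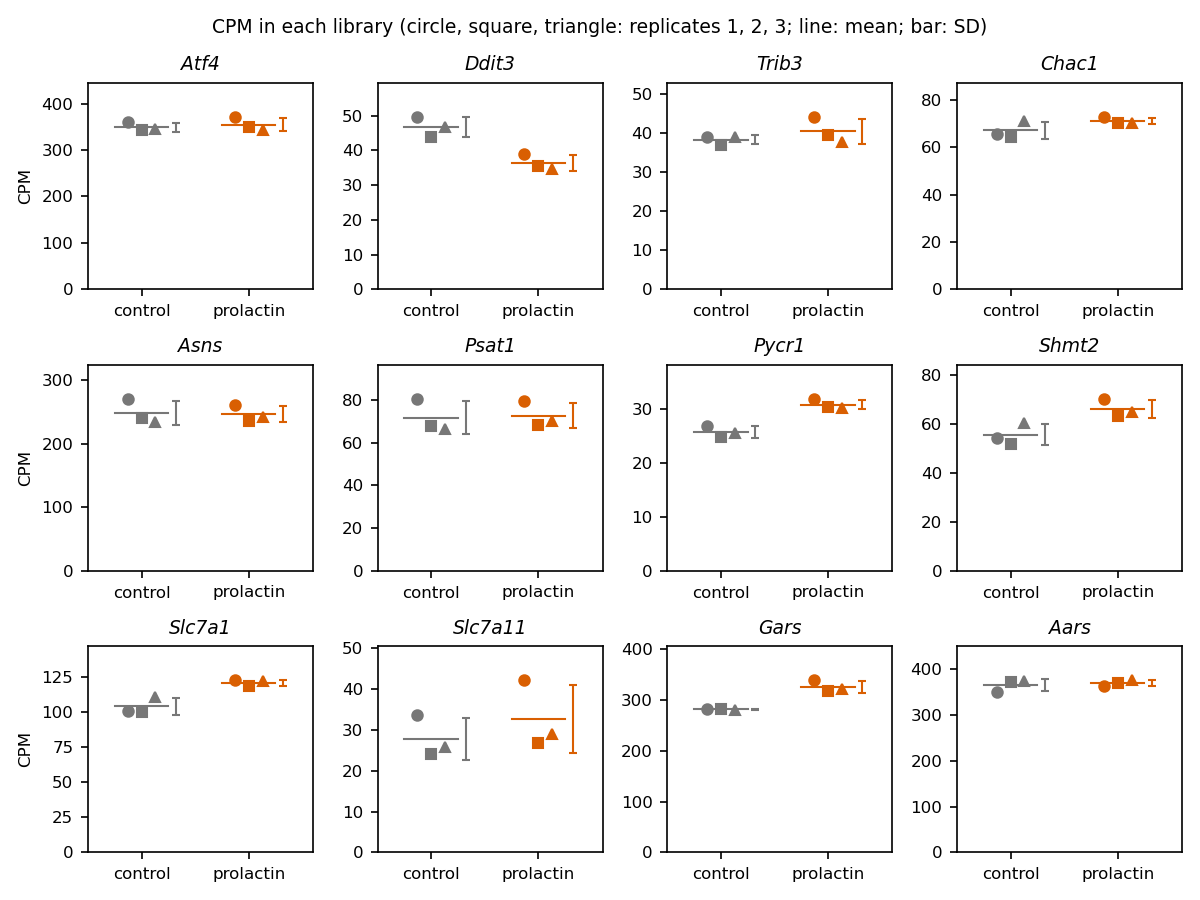
CPM (y axis, from 0) of 12 of the genes in each control (grey) and prolactin (orange) library, with symbols for replicates, a line for the mean and a bar for the SD (n = 3). Atf4, Asns, Psat1 and Aars overlap between conditions, while Ddit3 is lower and Pycr1, Shmt2, Slc7a1 and Gars are higher in every prolactin library.

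Among the synthesis enzymes, 0 of 11 passed, 10 had positive changes and 5 had prolactin libraries wholly above the controls, with a median log2 change of 0.13. Of all genes tested, 50.1% had positive changes and 11.3% had prolactin libraries wholly above. The smallest p among them was that of Pycr1 (chromosome 11, 120635712 to 120643769), whose enzyme makes proline in mitochondria. It stood at 26.9, 24.7 and 25.6 CPM in control and at 31.8, 30.4 and 30.1 CPM in prolactin. The groups did not overlap, and the log2 change was 0.26 (0.14 to 0.38, edgeR adjusted p = 0.0782). The replicate block brought the adjusted p of Pycr1 to 0.0343, and the authors' deposited table gives it as 0.00834. Aldh18a1, which makes the proline precursor upstream of Pycr1, stood at 137, 141 and 155 CPM in control and at 164, 158 and 165 CPM in prolactin (log2 change 0.17, adjusted p = 0.247). Gpt2, the mitochondrial alanine aminotransferase gene, stood at 21.9, 23.6 and 27.1 CPM in control and at 29.2, 29.4 and 28.4 CPM in prolactin (log2 change 0.26, adjusted p = 0.173).

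Serine and one-carbon genes were mixed. Shmt2, which takes a carbon unit from serine in mitochondria, stood at 54.3, 51.9 and 60.5 CPM in control and at 70.1, 63.0 and 64.8 CPM in prolactin (log2 change 0.25, 0.09 to 0.41, adjusted p = 0.161). Its libraries did not overlap, and its adjusted p in the authors' deposited table is 0.0428. Mthfd2, the next mitochondrial enzyme, also did not overlap but differed by little, with 118, 114 and 119 CPM against 121, 121 and 119.9 CPM (log2 change 0.05). The serine synthesis genes Phgdh and Psat1 shared a pattern by library. Phgdh stood at 60.9, 54.6 and 54.3 CPM in control and at 68.4, 58.6 and 59.1 CPM in prolactin, and Psat1 at 80.5, 67.8 and 66.5 CPM in control and 79.4, 68.2 and 70.2 CPM in prolactin. For both genes replicate 1 was the highest of its condition, and their log2 changes were 0.13 and 0.02.

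Asns, the asparagine synthetase gene and the classical amino acid response target, overlapped between the conditions: it stood at 271, 241 and 235 CPM in control and at 261, 237 and 243 CPM in prolactin. The interval of its log2 change of -0.01 ran from -0.17 to 0.15. The serine phosphatase gene Psph (0.09) and the transsulfuration genes Cbs (0.08) and Cth (0.22, at 1.61 to 2.34 CPM) overlapped between conditions, and 10.4% of the exon length of Psph overlaps Cct6a on the opposite strand. Shmt2, Gpt2 and Aldh18a1 passed in the edgeR test without control replicate 3 (adjusted p = 0.0448, 0.0303 and 0.0495), in which each was highest among the controls. That fit called 342 genes higher and 234 lower among all genes, against 156 and 25 with all libraries. The cause was not tested.

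Of the 11 transporters 0 passed, where 0.757% of all genes tested did. Positive changes were seen in 9, and 3 had prolactin libraries wholly above the controls, where 50.1% and 11.3% of all genes did. The median log2 change of the transporters was 0.15. That median became 0.10 without control replicate 1 and 0.09 without prolactin replicate 1. Slc7a1 (chromosome 5, 148327410 to 148399904), the main importer of arginine and lysine in many cells, stood at 101, 99.96 and 111 CPM in control and at 122, 118 and 122 CPM in prolactin. The groups did not overlap, and the log2 change was 0.22 (0.09 to 0.35, edgeR adjusted p = 0.135). Slc7a1 passed without control replicate 3 (adjusted p = 0.0343), and its adjusted p in the authors' deposited table is 0.0373. Slc7a2, a second cationic amino acid transporter gene that is typical of alpha cells, was more abundant, at 40.1 against 9.73 CPM per kb of exon. It stood at 396, 365 and 351 CPM in control and at 325, 381 and 381 CPM in prolactin, with overlap and a log2 change of -0.03. Slc7a3, the third of that kind, was scarce, from 6.64, 4.84 and 5.59 CPM to 8.17, 6.60 and 6.93 CPM (log2 change 0.34, 0.05 to 0.64, adjusted p = 0.274).

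Slc7a5, which imports leucine, stood at 201, 235 and 260.1 CPM in control and at 259, 256 and 257 CPM in prolactin (log2 change 0.15, -0.05 to 0.34). Its prolactin libraries were nearly identical, while its control libraries spread across and below them. Its heavy chain gene Slc3a2 stood at 272, 285 and 288 CPM in control and at 293, 289 and 295 CPM in prolactin, without overlap but with a log2 change of 0.05 (-0.07 to 0.18). Slc7a8, a second light chain for the same partner, stood at 204, 227 and 223 CPM in control and at 222, 257 and 258 CPM in prolactin (log2 change 0.17, adjusted p = 0.340).

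Slc7a11 imports cystine for glutathione and is a sensitive ATF4 target. It stood at 33.7, 24.0 and 25.9 CPM in control and at 42.1, 26.8 and 28.9 CPM in prolactin, so that replicate 1 was the highest in both conditions, and the log2 change of 0.22 (-0.18 to 0.62) turned to -0.01 without prolactin replicate 1. Slc1a5, the glutamine and alanine exchanger gene, stood at 23.8, 20.5 and 21.0 CPM in control and at 27.4, 24.5 and 23.4 CPM in prolactin, with a log2 change of 0.20 (adjusted p = 0.289). Its relative Slc1a4 had a log2 change of 0.01. The sodium-coupled transporter gene Slc38a2 (0.09) had prolactin libraries above its controls, and Slc38a4, at 111 CPM per kb the most abundant of the transporters per length, had a log2 change of -0.04 with overlap.

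**Figure D3:**
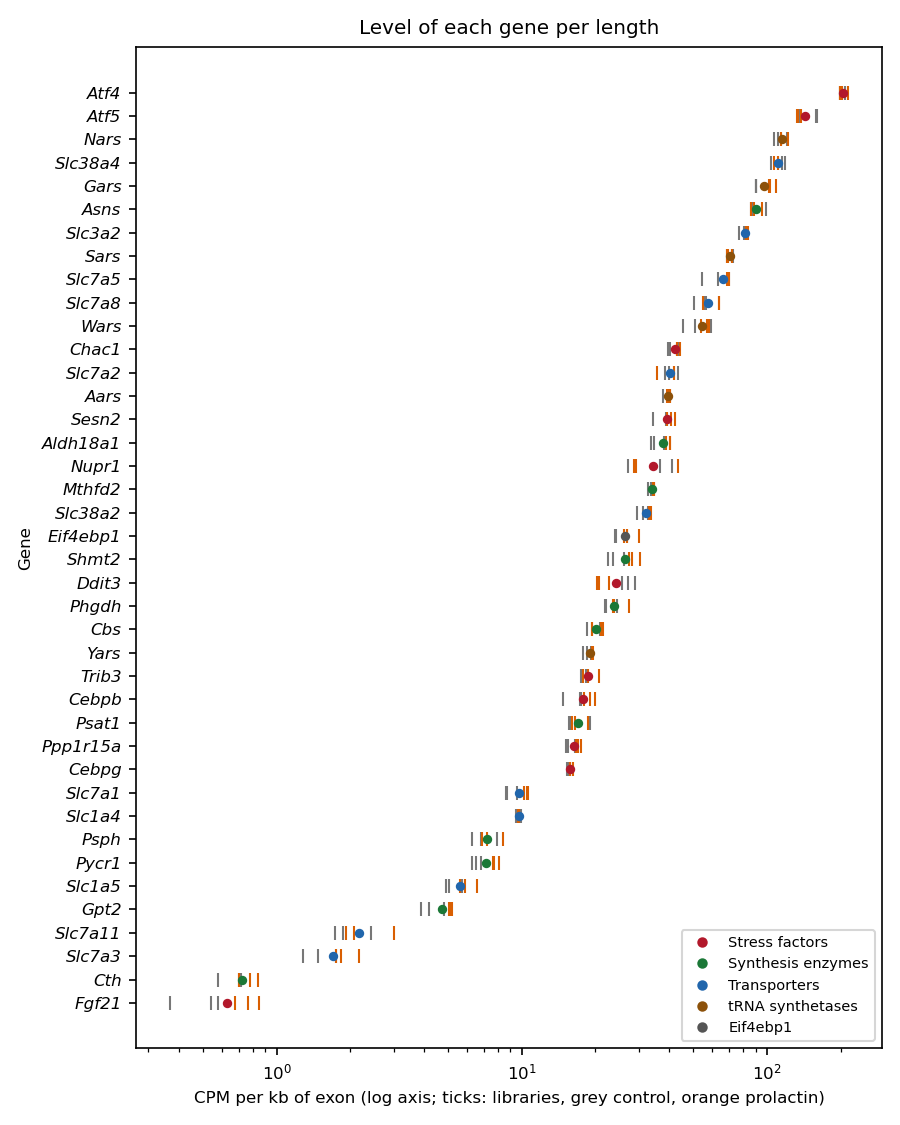
Level of each of the 40 genes in CPM per kb of exon (x axis, log scale), ordered by its mean (y axis), with a tick for each library. Atf4 is highest at 204 and Fgf21 lowest at 0.629 CPM per kb, and for most genes the 6 ticks lie within a narrow band.

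The 6 synthetases attach amino acids to tRNA and were among the more abundant genes, between 18.9 (Yars) and 115 CPM per kb (Nars). None passed, and 5 of 6 changes were positive, where 50.1% of all genes tested were. Their median was 0.06 on the log2 scale (0.04 without control replicate 1). Gars (chromosome 6, 55038007 to 55079500), the glycyl-tRNA synthetase gene, had the smallest p of the 6: its control libraries were almost equal at 282, 282 and 281 CPM, and its prolactin libraries stood at 339, 317 and 322 CPM. The log2 change was 0.21 (0.08 to 0.33, edgeR adjusted p = 0.137), and the authors' deposited table gives an adjusted p of 0.0221. The alanyl-tRNA synthetase gene Aars stood at 349, 371 and 374 CPM in control and at 362, 369.7 and 375 CPM in prolactin, with a log2 change of 0.02 (-0.11 to 0.15). Aars and Gars both carry the composite element letters. In the gene models 14.3% of the exon length of Aars overlaps Exosc6.

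Yars, for tyrosine, stood at 105, 109.9 and 114 CPM in control and at 116, 115 and 116 CPM in prolactin, without overlap (log2 change 0.07). Wars, for tryptophan, stood at 157, 176 and 204 CPM in control and at 187, 197 and 199 CPM in prolactin (log2 change 0.12). The asparaginyl-tRNA synthetase gene Nars stood at 319, 293 and 281 CPM in control and at 322, 302 and 300.01 CPM in prolactin (log2 change 0.05), and the seryl-tRNA synthetase gene Sars had a change of -0.02. Eif4ebp1, whose product holds back cap-dependent translation until mTORC1 releases it, stood at 59.3, 52.6 and 53.5 CPM in control and at 66.3, 58.9 and 57.5 CPM in prolactin (log2 change 0.14, -0.02 to 0.31, adjusted p = 0.404).

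In the mean level of each group, prolactin libraries lay wholly above control libraries for the enzymes, transporters and synthetases, and overlapped for the stress factors. The single genes did not divide in this manner. Those with prolactin libraries wholly above were 5 of 11 enzymes, 3 of 11 transporters, 2 of 6 synthetases and 3 of 11 stress factors. Among all genes tested 11.3% were. Relative to its mean over the 6 libraries, the mean log2 CPM of the synthesis enzymes ran from -0.14 to -0.02 in control and from 0.03 to 0.14 in prolactin. For the transporters it ran from -0.11 to -0.03 and from 0.03 to 0.10, and for the synthetases from -0.06 to -0.01 and from 0.03 to 0.05. The stress factors ran from -0.10 to 0.03 in control and from -0.03 to 0.10 in prolactin, and their median log2 change was 0.08, with Ddit3 and Atf5 below 0 and Fgf21 far above it. These differences between groups are descriptions and were not tested. In all 4 groups prolactin replicate 1 was the highest library. That library also had the highest acinar (2141), duct (2186) and stromal (918) marker sums of its condition, and the highest alpha-cell and delta-cell and PP-cell sums. Its beta-cell sum (119093) and its macrophage and leukocyte sum (117) were the lowest of its condition. Its endothelial sum (313) lay between those of the other prolactin libraries. Control replicate 3 had the highest acinar marker sum of all (3284). It was the highest control library for the stress factors (0.03) and the synthetases (-0.01). For the enzymes (-0.05 against -0.02 in control replicate 1) and the transporters (-0.05 against -0.03) it was not. The part of these markers in the group levels was not tested.

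**Figure D4:**
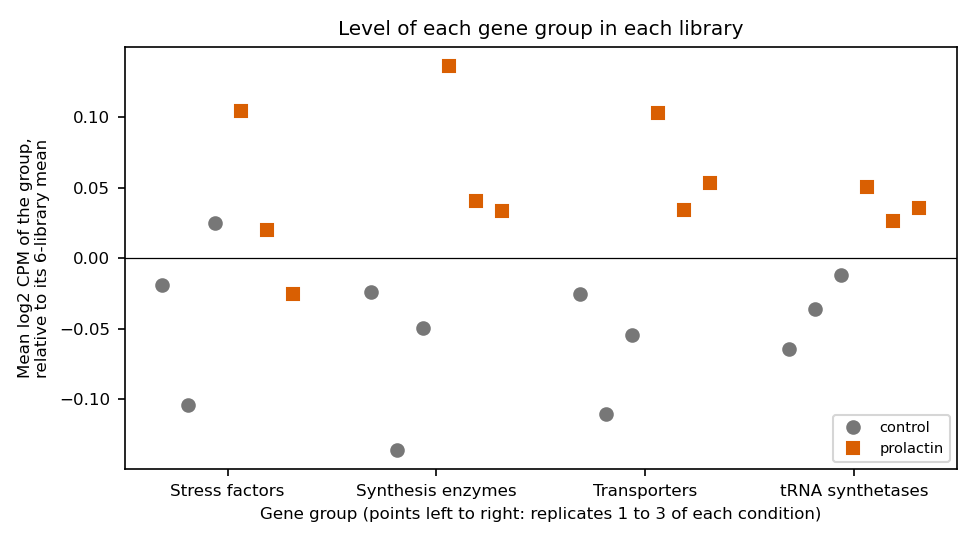
Mean log2 CPM of each gene group relative to its mean over the 6 libraries (y axis) for control (grey circles) and prolactin (orange squares) replicates 1 to 3. The prolactin points of the enzymes, transporters and synthetases all lie above 0 and above the controls, while those of the stress factors run from -0.03 to 0.10.

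Genes around the programme were compared through 6 lists with 114 members, of which 113 were tested. None had an edgeR adjusted p under 0.05, where 0.757% of all genes tested did. Before adjustment 14 of the 113 had a p under 0.05 and lay higher and 10 lower, where 7.78% and 6.68% of all genes did. The median log2 change of the 113 was 0.00, with 57 positive and 56 negative. Upstream, among 17 genes for the eIF2 kinases, eIF2, its exchange factor and their regulators, 10 had negative changes. The other 7 (41.2%) were positive, where 50.1% of all genes tested were. The double-stranded RNA kinase gene Eif2ak2 stood at 64.8, 57.7 and 66.8 CPM in control and at 54.9, 54.6 and 54.5 CPM in prolactin (log2 change -0.21, edgeR adjusted p = 0.178). Impact, an inhibitor of the amino acid sensing kinase GCN2, stood at 144, 126 and 138 CPM in control and at 123, 117 and 116 CPM in prolactin (log2 change -0.20, adjusted p = 0.195). Both lay lower in every prolactin library. In this list 5 of 17 (29.4%) lay wholly below their controls and 2 (11.8%) wholly above, where 10.4% and 11.3% of all genes did.

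Of 16 other stress genes, 5 had an unadjusted p under 0.05, of which 4 lay higher and 1 lower, where 7.78% and 6.68% of all genes did. Gdf15, a stress hormone gene, stood at 8.53, 8.10 and 8.24 CPM in control and at 11.5, 9.64 and 10.4 CPM in prolactin (log2 change 0.34, edgeR adjusted p = 0.101). Atf3, a factor downstream of ATF4, stood at 9.21, 8.62 and 8.31 CPM in control and at 10.7, 10.8 and 10.1 CPM in prolactin (log2 change 0.27, adjusted p = 0.134). DESeq2 called 3 of these 16 genes higher, where it called 4.1% of all genes higher. Of 27 further enzymes, Bcat1, which starts the breakdown of branched-chain amino acids, had the smallest p, with 4.28, 4.13 and 3.00 CPM in control against 6.17, 5.78 and 5.64 CPM in prolactin (log2 change 0.62, adjusted p = 0.0805), and Asl, of the urea cycle, had a log2 change of -0.17 (adjusted p = 0.171).

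Among 22 further transporters tested, Slc7a7, an exporter chain for cationic amino acids that pairs with Slc3a2, stood at 4.14, 3.67 and 3.89 CPM in control and at 5.62, 5.59 and 4.80 CPM in prolactin (log2 change 0.45, edgeR adjusted p = 0.0816), and Slc38a10 had a log2 change of 0.18 (adjusted p = 0.203). Of 14 further cytosolic synthetases, Mars had the smallest p and Vars followed with a log2 change of 0.17 (adjusted p = 0.353). Of the 17 mitochondrial synthetases, 12 had negative changes and 5 positive ones, with a median of -0.06. Of these 17 genes 2 (11.8%) lay wholly below their controls and 1 (5.88%) wholly above, where 10.4% and 11.3% of all genes did. Ears2, for glutamate, stood at 17.9, 18.3 and 18.8 CPM in control and at 20.4, 21.4 and 21.2 CPM in prolactin (log2 change 0.19, adjusted p = 0.152).

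**Figure D5:**
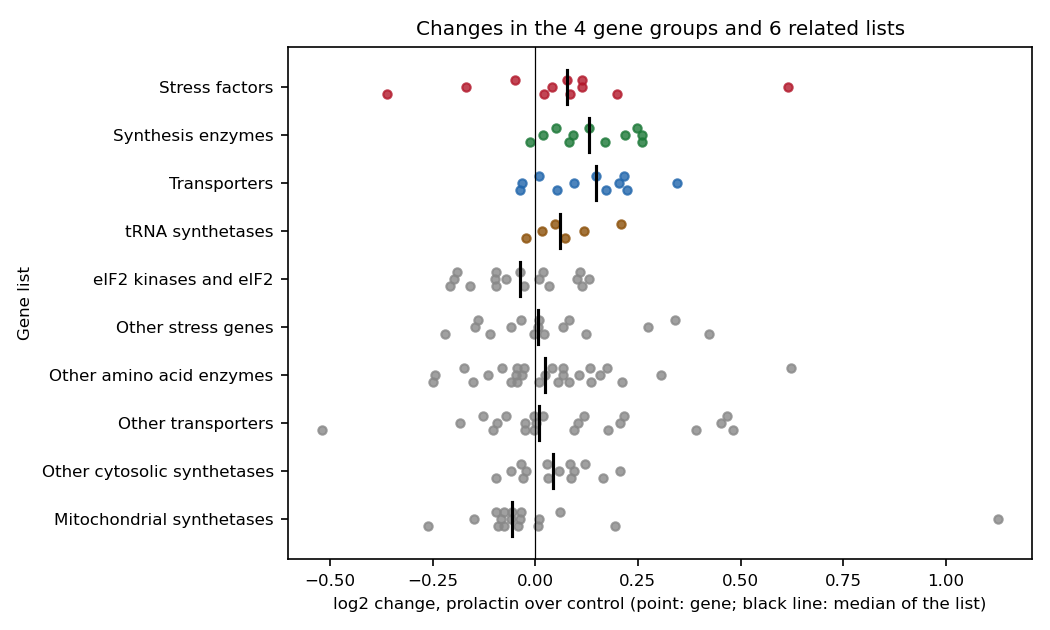
Log2 change of prolactin over control (x axis) for each gene, as a point, in the 4 gene groups and 6 related lists (y axis), with a black line at each median. The medians of the stress factors (0.08), enzymes (0.13), transporters (0.15) and synthetases (0.06) all lie to the right of those of the related lists. Those of the related lists run from -0.06 to 0.04. The point near 1.1 is Lars2, set by 1 library.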

How the data were processed

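The 6 islet libraries were polyA-selected (NEBNext Ultra II) and run on a NovaSeq X Plus, according to the labels. Per the file headers, featureCounts 2.0.3 made the deposited counts without using strand, grouping GENCODE vM10 exons by gene name. mm10, SAMtools 1.21, Subread 2.1.0 and DESeq2 are named in the submitters' processing notes. The aligner's name is not given in the sources used. Even values were in surplus among counts of 1 to 20 (53.9% to 56.3%), so both mates of a pair may be counted and counts overstate fragments. The authors' deposited table gives log2 fold changes and adjusted p-values, and DESeq2 1.42.0 with its defaults gave the same log2 changes to within 3.9e-09.

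The main test was that of edgeR 4.0.16 under R 4.3.3 (TMM, minimum count 10, minimum total 15). It tested 23924 of 48397 genes with condition as the only term, two-sided, Benjamini-Hochberg adjusted over all, at a threshold of 0.05. The SE and 95% confidence interval come from the test statistic, and CPM per kb uses the deposited exon length. Genes given with every library's value are those past the threshold, the 4 with the smallest p in each group, and 14 textbook genes; for each related list, the 2 with the smallest p. Nupr1 and Lars2 (with Gm15564 and mt-Rnr2) were picked after their values were seen. The genes and lists were chosen with earlier results of these data known. limma 3.58.1 (voom), other scalings and filters, the replicate number as a block, single libraries left out, prolactin replicates 2 and 3 summed, halved counts and a test against 1.2-fold were alternatives; edgeR's other legacy setting was added with the results in view. Scripts were first tested on simulated data. Some items covered by these rules are not reported here.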

Additional observations from a re-analysis of the deposited data

How the results depend on the processing

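Across 17 alternatives, 648 of 679 single-gene values kept their direction and their side of the threshold, 14 came to pass it and 17 changed sign. The counts of the 40 genes called higher and lower, 0 and 0, became 4 and 1 with DESeq2, 1 and 1 with no filter on low counts, and 1 and 1 with the replicate block, and ranged from 0 to 4 and from 0 to 1 over the fits without 1 library, where the 4 and the 1 came without control replicate 3. The block called Ddit3 (adjusted p = 0.0110) and Pycr1 (0.0343) and no other of the 40, while all genes called went from 156 higher and 25 lower to 464 and 134. All genes called were 776 higher and 303 lower with DESeq2, and 470 and 127 with no filter. Deviations of same-numbered libraries correlated at 0.21, 0.12 and -0.03, and the third pair did not correlate best with its own number, so the numbers were not taken as pairs.

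The 17 sign changes were in 9 genes near 0 or uneven between libraries. Over the fits without 1 library the log2 change ranged from -0.0134 to 0.0336 for Aars, from -0.0567 to 0.0524 for Asns, from -0.0135 to 0.0442 for Atf4, from -0.275 to 0.0844 for Nupr1, from -0.0514 to 0.113 for Psat1, and from -0.000529 to 0.187 for Psph. It ranged from -0.00796 to 0.0292 for Slc1a4, from -0.00605 to 0.385 for Slc7a11 and from -0.0727 to 0.0366 for Slc7a2. With prolactin replicates 2 and 3 summed, Asns became 0.00759 and Nupr1 0.0490. Group medians that moved by more than 1 SD were those of the synthetases, with 0.0379 to 0.0679, and of the transporters, with 0.0864 to 0.173, when single libraries were left out.

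In the related lists, where 0 were called, DESeq2 called 1 enzyme, 1 transporter, 3 other stress genes and 1 cytosolic synthetase higher and 1 mitochondrial synthetase lower. With no filter 1 enzyme, 1 transporter and 1 other stress gene were called higher, and with the replicate block 1 enzyme and 1 other stress gene. Among all genes, DESeq2 called 776 higher and 303 lower, the fit with no filter 470 and 127, and the block 464 and 134. The main fit called 156 and 25. Over the fits without 1 library the counts higher ranged from 0 to 2 for enzymes, 0 to 1 for transporters and 0 to 1 for cytosolic synthetases, and those lower from 0 to 1 for mitochondrial synthetases. Among all genes these fits called 39 to 342 higher and 1 to 234 lower. The causes were not tested. Fgf21 and Cth had the lowest CPM of the 40, and halving all counts changed no call among the 40.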

Other observations

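Lars2, the mitochondrial leucyl-tRNA synthetase gene, stood at 1386 CPM in prolactin replicate 1, against 197 and 205 CPM in the other two prolactin libraries and 315, 305 and 199 CPM in control. Its mean change of 1.13 on the log2 scale (edgeR adjusted p = 0.485) rests on that 1 library. The predicted gene Gm15564 was also highest there, at 107 CPM in prolactin replicate 1 and 14.6 to 23.3 CPM elsewhere. The mitochondrial ribosomal RNA gene mt-Rnr2, at 1329 CPM in that library, lay between 867 and 1307 CPM in the other 5.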
